A study of Mus musculus with 4 samples.

Results

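FGF and ERK feedback genes were taken as 10 genes of the count table, found by symbol among its 37620 gene identifiers: the ligand Fgf4, the receptors Fgfr1 and Fgfr2, the Sprouty-type inhibitors Spry2, Spry4 and Spred1, the phosphatases Dusp4 and Dusp6, and the transcription factors Etv4 and Etv5. RNA-seq libraries came from mouse embryonic stem cells (mESCs) in which the endogenous CTCF carries EGFP and an auxin-inducible degron. In both lines this tagged CTCF was removed with auxin and replaced from a vector. WT_CTCF cells carried wild-type CTCF, and MUT_CTCF cells carried CTCF mutated at T668 so that this residue cannot hold O-GlcNAc, a single sugar that the enzyme OGT attaches to serine or threonine. The comparison asks which transcripts differ between cells with wild-type CTCF and cells with CTCF that cannot carry this sugar at T668. Both lines grew on gelatin in medium with 15% fetal bovine serum and LIF at 1000 U/mL, and each had 2 libraries. The cells were selected with hygromycin and picked as clones, so the mutation and the clone cannot be told apart. The methods call the libraries biological replicates, and nothing in the labels ties them to separate cultures. The p-values therefore reach no further than the spread between these libraries. The test takes that spread mostly from all genes together, not from each gene's own libraries.

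FGF4, secreted by mESCs, binds FGF receptors on the same and neighbouring cells and activates RAS, RAF, MEK and ERK kinases in turn. ERK activity switches on its own inhibitors: Sprouty and SPRED proteins act between the receptor and RAF, and dual-specificity phosphatases remove phosphate from ERK. ETV4 and ETV5, ETS-family factors, are induced by the same signal, so their transcripts and those of the inhibitors are widely read as a record of FGF signalling. In mESCs the pathway moves cells out of the naive state and, in the embryo, directs inner cell mass cells to primitive endoderm.

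Of the 10 genes, 1 changed, where 3.17% of all tested genes did: Spry2, whose transcript was 15.4% lower in MUT_CTCF mESCs. Spry4 was also lower in both MUT_CTCF libraries and did not pass the test after adjustment. The ligand Fgf4, the receptor Fgfr1, Spred1 and Etv5 had 95% intervals that lay within 0.2 of zero on the log2 scale. Of the 74 further pathway genes that could be tested, 2 rose (1.56% of all tested genes) and 4 fell (1.61%), among them the immediate-early gene Egr1, which was 29.3% higher, and Map2k2, which encodes the ERK kinase MEK2 and was 11.8% lower.

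The 4 libraries held 40524694 to 40977464 counts each, with TMM scaling factors of 0.994 to 1.01, and 16264 genes passed the filter on low counts. Tests were made with edgeR's quasi-likelihood (QL) F-test and Benjamini-Hochberg adjustment over all of these genes, and a gene is said to rise or fall where the adjusted p was under 0.05. By this rule 3.17% of all tested genes differed between the lines, 1.61% lower and 1.56% higher in MUT_CTCF. All embryonic stem cell markers on a list of 12 were tested, and their summed level was 7922 and 7992 CPM (counts scaled by library size) in WT_CTCF and 7909 and 7974 CPM in MUT_CTCF. Summed primitive endoderm markers lay between 669 and 688 CPM, trophectoderm markers between 140.2 and 149.9 CPM, and fibroblast markers between 46.5 and 53.2 CPM. Such sums weigh the most abundant genes most. Of the 10 tested primitive endoderm markers, 7 had a higher and 3 a lower estimate in MUT_CTCF. Of the 12 fibroblast markers, 7 passed the filter on low counts, and Lum and S100a4 were at 0 in all 4 libraries. Ctcf itself stood at 18485 ± 259 normalized counts in the first line and 19058 ± 378 in the second (SD, n = 2 each), a sum of whatever endogenous and vector transcripts reached the gene's row.

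All 10 genes passed the filter, 4 with a higher and 6 with a lower estimate in MUT_CTCF. None rose and 1 fell. At an unadjusted p under 0.05, 2 of the 10 were counted, beside 15.3% of all tested genes. At the criterion used in the study, an unadjusted p under 0.05 together with a fold change above 2, none was counted (1.3% of all tested genes), and that count was also 0 with DESeq2 and with edgeR's exact test. The 2 groups of libraries did not overlap for 6 of the 10, beside 44.7% of all tested genes. The median log2 fold change of the 10 was -0.022, and that of all tested genes was 0.0034. Summed over the 10 genes, the level was 1436 and 1439 CPM in WT_CTCF and 1412 and 1419 CPM in MUT_CTCF. In bulk RNA, fewer cells expressing a gene and less RNA of it per cell cannot be told apart.

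**Figure D1:**
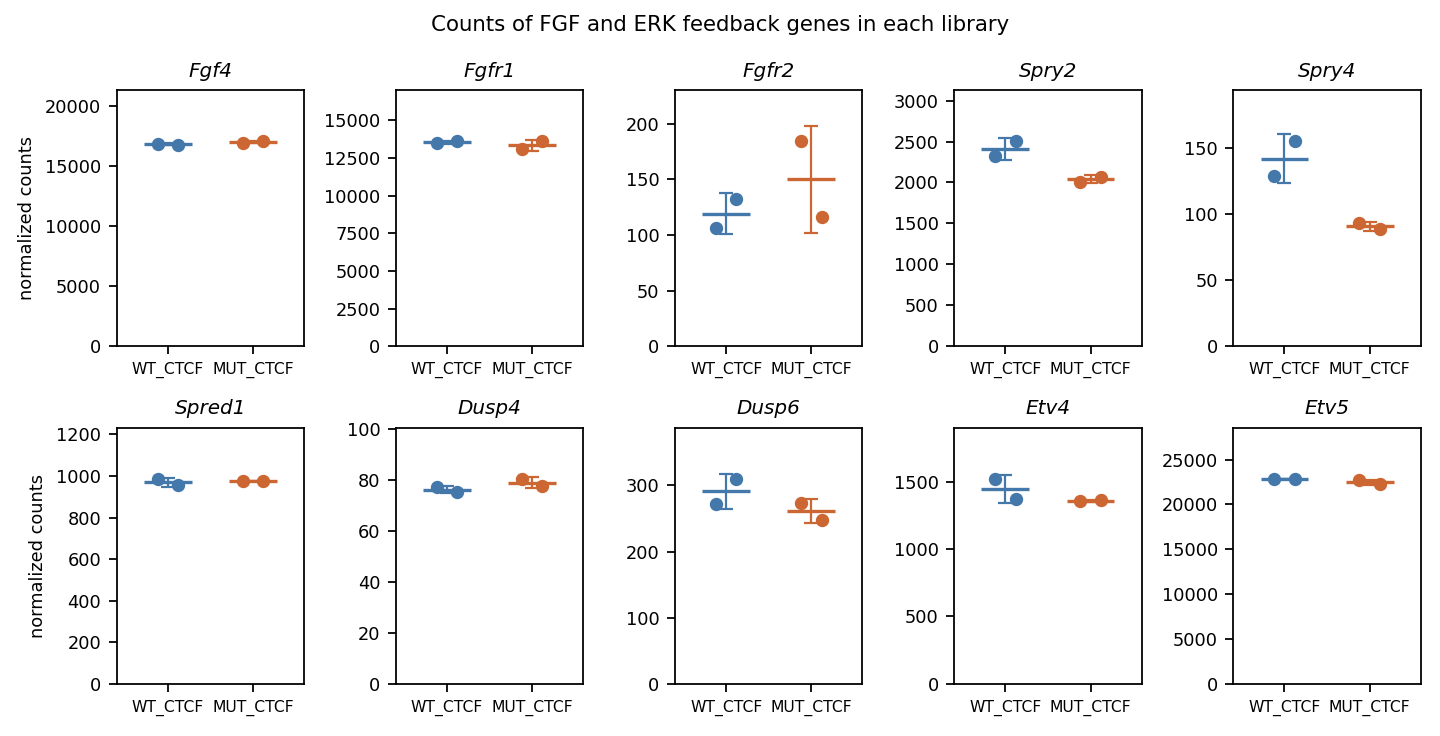
Normalized read counts of the 10 FGF and ERK feedback genes in each of the 4 libraries, 1 panel per gene, with a y axis from 0 in every panel; points are libraries, the wide line is the mean of the 2 libraries of a line and the error bar is ± 1 SD. Spry2 and Spry4 sit lower in both MUT_CTCF libraries than in both WT_CTCF libraries, and Fgfr2 is high in MUT_CTCF replicate 1 alone.

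Fgf4 encodes the FGF that mESCs make themselves. It is annotated on the plus strand of chromosome 7 of the mm9 genome (ENSMUSG00000050917, chr7:152047291-152051148). In WT_CTCF cells it was read 16856 and 16748 times, and in MUT_CTCF cells 17074 and 16993 times. Scaled to the mean library these were 16835 ± 67.5 (SD, n = 2) and 17001 ± 104 (SD, n = 2). The MUT_CTCF libraries were both the higher ones, by 0.983% on the mean, and the log2 fold change was 0.014 with a standard error of 0.0288 (edgeR QL, adjusted p = 0.886). Its 95% interval ran from -0.044 to 0.072, so a change of the ligand's transcript larger than this was not seen at this depth.

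Promoter sequences are shown for Fgf4, for Spry2, the gene that fell, and for Etv5, the target with the highest level, since CTCF binds DNA and a reader may want to look at what lies at these starts. They come from the RefSeq promoter table of GRCm38.p6, from 250 bases before to 50 bases after the start, which held 7 promoters of 6 of the 10 genes (Fgf4, Fgfr2, Spry2, Spred1, Dusp6 and Etv5). They are written 5′ to 3′ on the strand of the gene, and capitals mark matches to the GC box GGGCGG or its reverse complement, the motif of SP and KLF factors. The windows are chr7:144861136-144861435 on the plus strand for Fgf4, chr14:105896770-105897069 on the minus strand for Spry2 and chr16:22439521-22439820 on the minus strand for Etv5.
Fgf4: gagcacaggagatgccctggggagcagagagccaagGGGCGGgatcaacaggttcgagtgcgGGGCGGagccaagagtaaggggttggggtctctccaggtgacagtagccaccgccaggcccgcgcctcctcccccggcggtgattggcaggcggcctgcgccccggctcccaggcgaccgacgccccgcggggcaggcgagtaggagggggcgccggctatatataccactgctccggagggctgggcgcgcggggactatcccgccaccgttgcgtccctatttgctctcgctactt
Spry2: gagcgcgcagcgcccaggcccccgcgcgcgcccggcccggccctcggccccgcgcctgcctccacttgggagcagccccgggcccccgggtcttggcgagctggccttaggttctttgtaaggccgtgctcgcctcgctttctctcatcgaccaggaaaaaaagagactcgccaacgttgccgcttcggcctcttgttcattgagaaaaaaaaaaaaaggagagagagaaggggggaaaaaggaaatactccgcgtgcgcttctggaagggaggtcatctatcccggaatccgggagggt
Etv5: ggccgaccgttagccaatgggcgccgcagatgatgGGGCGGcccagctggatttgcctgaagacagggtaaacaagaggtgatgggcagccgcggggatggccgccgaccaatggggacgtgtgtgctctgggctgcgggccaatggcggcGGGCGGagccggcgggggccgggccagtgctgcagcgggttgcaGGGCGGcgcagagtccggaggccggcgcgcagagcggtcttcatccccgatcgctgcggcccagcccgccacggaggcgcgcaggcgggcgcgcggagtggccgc
All 3 are rich in G and C, with 69.7% for Fgf4, 62.7% for Spry2 and 74% for Etv5, where the median of the 32851 promoters in the table is 52.7%. They hold 28, 28 and 37 CpG dinucleotides, against a median of 7. The Fgf4 window has 2 GC boxes, the Etv5 window shown 3 and the Spry2 window 0, and 35.7% of all promoters in the table hold at least 1. A second RefSeq promoter of Etv5 (chr16:22438319-22438618), not shown, has 0 GC boxes, 60% G and C and 19 CpG dinucleotides. An ETS site written CCGGAAG, searched on both strands, was in none of the 7 promoters and in 8.86% of all promoters. The inner letters of the CTCF motif, AGGNGGC on either strand, which can overlap a GC box, matched 3 times for Fgf4, 2 times for Dusp6 and in no other of the 7, and 29.4% of all promoters held a match. These are matches of letters, and a motif that is not in a window says nothing about the factor elsewhere at the gene.

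Fgfr1 encodes the main FGF receptor of mESCs (ENSMUSG00000031565, chr8:26624126-26686186, plus strand). It had 13456 and 13571 counts in WT_CTCF and 13179 and 13540 in MUT_CTCF, and the groups overlapped. The normalized means were 13540 ± 88.7 and 13335 ± 382 (SD, n = 2 each), and the log2 fold change was -0.022 with a standard error of 0.0311 (edgeR QL, adjusted p = 0.82, 95% interval -0.084 to 0.04). Without MUT_CTCF replicate 1 the estimate was 0.0069, so no direction can be given. A second identifier with the same symbol (ENSMUSG00000091895) lies wholly on 761 exon bases of the first and had 0 counts in every library. The exons also share 125 bases with Gm16159 on the opposite strand, which had 5 to 15 counts.

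Fgfr2, the receptor associated with primitive endoderm, was read at low depth (ENSMUSG00000030849, chr7:137305965-140315033, minus strand). Its counts were 106 and 132 in WT_CTCF and 186 and 115 in MUT_CTCF. MUT_CTCF replicate 1 stood above the other 3 libraries, which overlapped. The normalized means were 119 ± 18.5 and 150.0 ± 48.7 (SD, n = 2 each), and the log2 fold change of 0.33 had a standard error of 0.234 (edgeR QL, adjusted p = 0.556, 95% interval -0.14 to 0.80). Without that library the estimate was -0.045. The annotated exons share 314 bases, 4.03% of the total, with Ctbp2 on the same strand, which had 3837 to 4120 counts, so reads on those bases cannot be assigned by position.

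Spry2 encodes a Sprouty protein, an inhibitor induced by receptor tyrosine kinase signalling that limits activation of RAS and RAF (ENSMUSG00000022114, chr14:106291166-106296036, minus strand). It had 2314 and 2496 counts in WT_CTCF and 2023 and 2062 in MUT_CTCF. Both MUT_CTCF libraries lay below both WT_CTCF libraries. The normalized means were 2410 ± 130.2 and 2039 ± 46.9 (SD, n = 2 each), a fall of 15.4% with a 95% interval of -22.2% to -7.98%. The log2 fold change was -0.24 with a standard error of 0.0605, and the gene passed the test (edgeR QL, adjusted p = 0.013). The call was lost when no filter on low counts was applied (adjusted p = 0.241), and when WT_CTCF replicate 2 (0.268), MUT_CTCF replicate 1 (0.491) or MUT_CTCF replicate 2 (0.477) was left out, with adjusted p between 0.0036 and 0.491 over all alternatives. The log2 fold change stayed between -0.30 and -0.19 without any single library. Leaving out either MUT_CTCF library left 0 genes of the whole table with an adjusted p under 0.05 by edgeR QL, and 1651 and 1585 at an unadjusted p under 0.05, so those fits called no gene at all.

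Spry4 encodes another Sprouty inhibitor of the same step (ENSMUSG00000024427, chr18:38745922-38760922, minus strand). Its counts were low, 129 and 155 in WT_CTCF and 94 and 88 in MUT_CTCF, and the groups did not overlap. The normalized means were 142 ± 18.5 and 90.8 ± 3.37 (SD, n = 2 each). The estimate was 36.1% lower in MUT_CTCF, a log2 fold change of -0.65 with a standard error of 0.244 (95% interval -1.14 to -0.16). Its unadjusted p of 0.0104 became an adjusted p of 0.151 by edgeR QL, so Spry4 is not counted among the genes that fell. Over 6 alternatives with every library (edgeR QL or exact test) the adjusted p was between 0.134 and 0.387. DESeq2 gave an adjusted p for 6 of the 10 genes, and Spry4 was not among them. Its interval contains the estimate for Spry2, and whether the 2 genes differ in their change was not tested.

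Spred1 encodes a Sprouty-related protein that brings neurofibromin to RAS (ENSMUSG00000027351, chr2:116947110-117008015, plus strand). It had 984 and 953 counts in WT_CTCF and 986 and 971 in MUT_CTCF, and the groups overlapped. The normalized means were 970.4 ± 21.4 and 977 ± 1.3 (SD, n = 2 each), with a log2 fold change of 0.0092 and a standard error of 0.0854 (edgeR QL, adjusted p = 0.977, 95% interval -0.16 to 0.18). It took the opposite sign, -0.014, without WT_CTCF replicate 2.

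Dusp6 encodes the cytoplasmic phosphatase specific for ERK, and Dusp4 a nuclear phosphatase of ERK and related kinases. Dusp6 (ENSMUSG00000019960, chr10:98725865-98730122, plus strand) had 272 and 309 counts in WT_CTCF and 276 and 247 in MUT_CTCF. The groups overlapped, the normalized means were 291 ± 26.4 and 261 ± 18 (SD, n = 2 each), and the log2 fold change was -0.16 with a standard error of 0.154 (edgeR QL, adjusted p = 0.707, 95% interval -0.47 to 0.15). Dusp4 (ENSMUSG00000031530, chr8:35870351-35882948, plus strand) had 77 and 75 counts in WT_CTCF and 81 and 77 in MUT_CTCF. After scaling the groups did not overlap, with 76.1 ± 1.38 and 78.8 ± 2.07 normalized counts (SD, n = 2 each). At this depth the log2 fold change of 0.05 had a standard error of 0.3 and an interval of -0.55 to 0.65 (edgeR QL, adjusted p = 0.968), so a change as large as that of Spry2 was not detectable in Dusp4.

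Etv4 and Etv5 encode the ETS factors most often used as reporters of FGF signalling. Etv5 (ENSMUSG00000013089, chr16:22381382-22439792, minus strand) had 22785 and 22781 counts in WT_CTCF and 22875 and 22170 in MUT_CTCF. Both MUT_CTCF libraries were lower after scaling, at 22477 ± 284 against 22828 ± 9.4 normalized counts (SD, n = 2 each). The log2 fold change of -0.022 had a standard error of 0.0269 and did not pass (edgeR QL, adjusted p = 0.78, 95% interval -0.076 to 0.032). Etv4 (ENSMUSG00000017724, chr11:101631056-101646685, minus strand) had 1520 and 1369 counts in WT_CTCF and 1367 and 1358 in MUT_CTCF. WT_CTCF replicate 1 stood above the other 3 libraries, the groups did not overlap after scaling, and the normalized means were 1447 ± 106 and 1360 ± 6.58 (SD, n = 2 each). Its log2 fold change was -0.09 with a standard error of 0.0738 (edgeR QL, adjusted p = 0.634, 95% interval -0.24 to 0.058).

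**Figure D2:**
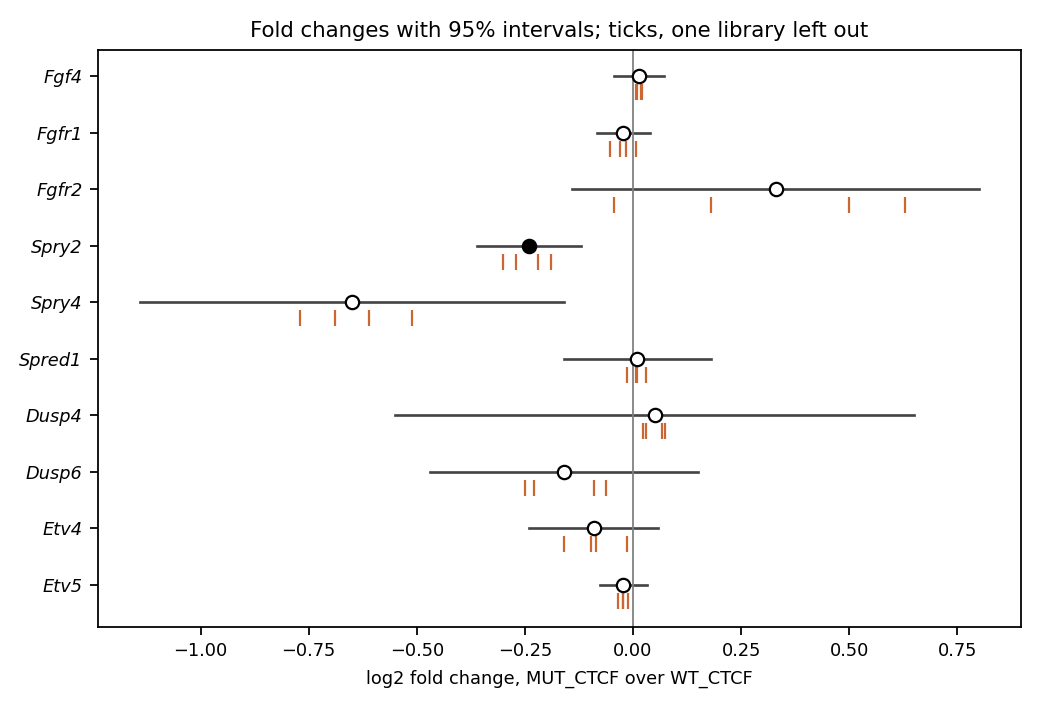
Log2 fold change of MUT_CTCF over WT_CTCF for each of the 10 genes, ordered by role; circles are edgeR QL estimates, filled where the adjusted p was under 0.05, lines are 95% intervals and the short ticks are the estimates with 1 library left out. The intervals of Spry2 and Spry4 lie below zero, and Spry2 is the only filled circle.

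Levels between genes were compared as CPM per kilobase of exon. The ligand and a target stood at the top: Fgf4 at 137 CPM per kb (136 to 138 over the 4 libraries) and Etv5 at 135 CPM per kb (133 to 136), ranges that overlapped. Fgfr1 followed at 40.9 CPM per kb, Spry2 at 26.1, Etv4 at 11.1, Spred1 at 3.52 and Dusp6 at 2.42, and none of these overlapped its neighbour in the order. Spry4, at 0.623 CPM per kb, overlapped both Dusp4 at 0.693 above it and Fgfr2 at 0.423 below it, and Dusp4 and Fgfr2 did not overlap each other. Fgf4 was thus 323 times as abundant per length as Fgfr2. Among all tested genes, Fgf4 and Etv5 were at the 97.5 and 97.4 percentiles of level per length, Spry2 at 83.8, Spred1 at 48.2, and Dusp4, Spry4 and Fgfr2 at 23.9, 22.5 and 17.4. The feedback genes therefore spanned most of the range of expression in these cells, and the 3 at the low end had the widest intervals of fold change.

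**Figure D3:**
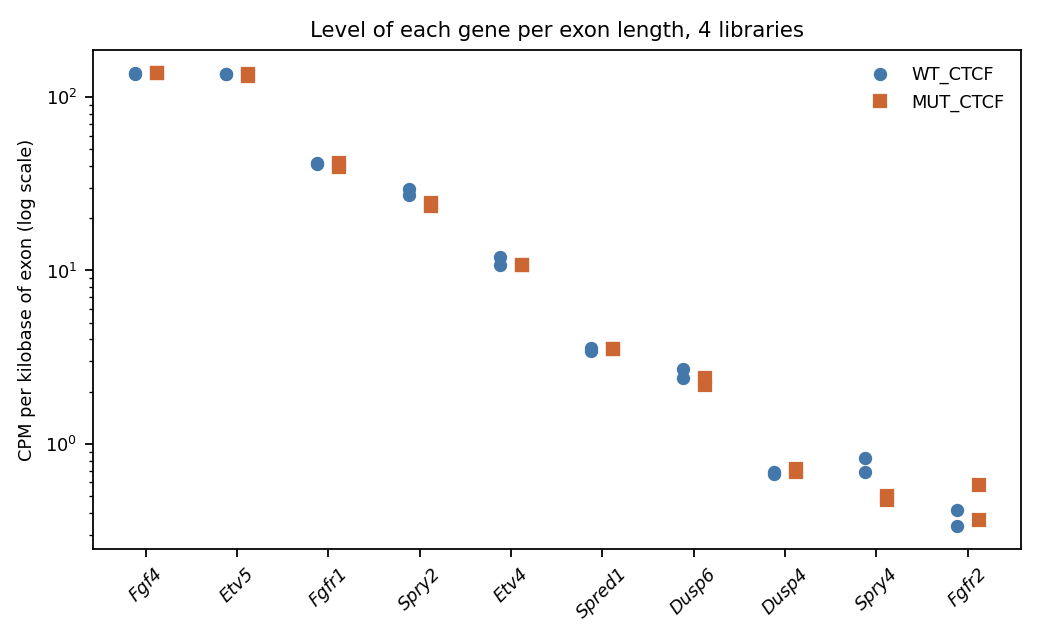
Level of the 10 genes in CPM per kilobase of exon on a log axis, in order of the mean over 4 libraries; points are libraries, coloured by line. Fgf4 and Etv5 overlap at the top, and at the bottom Spry4 overlaps both Dusp4 and Fgfr2.

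**Figure D4:**
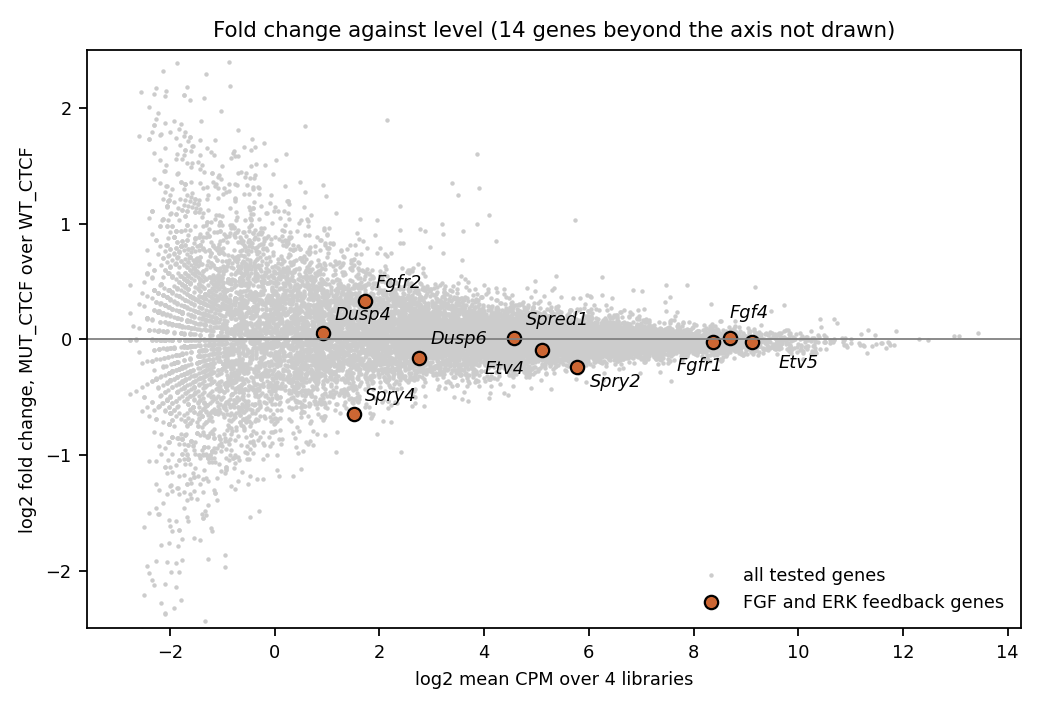
Log2 fold change of MUT_CTCF over WT_CTCF (y axis) against log2 of the mean CPM over the 4 libraries (x axis); grey points are all tested genes, 14 of which lie beyond the axis and are not drawn, and orange points are the 10 FGF and ERK feedback genes. Most of the 10 lie within the grey cloud near zero, while Spry4 lies towards its lower edge at low level and Spry2 towards its lower edge at a higher level.

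The rest of the pathway was read from lists of ligands, receptors, cascade proteins, inhibitors and responsive transcription factors that hold 89 genes besides the 10. Of these, 74 were tested, 2 rose, 4 fell and 68 did not pass (edgeR QL), so 6 of 74 were called where 3.17% of all tested genes were. At an unadjusted p under 0.05 there were 18 of the 74, beside 15.3% of all tested genes. The median log2 fold change of the 74 was -0.0039. The groups of libraries did not overlap for 41 of the 74, beside 44.7% of all tested genes.

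Of 21 other FGF family genes, 9 were tested and none passed (edgeR QL, and 0 with the exact test), where 3.17% of all tested genes did. At an unadjusted p under 0.05 there were 3, beside 15.3% of all tested genes. DESeq2 gave an adjusted p for 2 of the 9, neither Fgf11 nor Fgf18, and called 0. The median log2 fold change was 0.26. Fgf11, an intracellular FGF homologous factor that is not secreted, had 91 and 69 counts in WT_CTCF and 164 and 119 in MUT_CTCF, a log2 fold change of 0.82 with a standard error of 0.256 (edgeR QL, adjusted p = 0.0657). It passed with the replicate number as a block (edgeR QL, adjusted p = 0.0431). Fgf18, a secreted ligand, had 135 and 134 counts in WT_CTCF and 87 and 98 in MUT_CTCF (log2 fold change -0.54, standard error 0.246, edgeR QL adjusted p = 0.271). Fgf5, the epiblast FGF that marks cells leaving the naive state, was at 0 in all 4 libraries, which allows up to 3 counts or 0.0732 to 0.074 CPM by counting error alone. Fgf6 was likewise at 0.

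Of 7 further receptors and binding proteins, 6 were tested and none passed (edgeR QL), where 3.17% of all tested genes did. At an unadjusted p under 0.05 there were 2, beside 15.3% of all tested genes. The exact test called 0, and so did DESeq2, which gave an adjusted p for 1 of the 6. The median log2 fold change was 0.092. Fgfbp1, a secreted carrier of FGFs, had 163 and 180 counts in WT_CTCF and 110 and 119 in MUT_CTCF (log2 fold change -0.59, standard error 0.217, edgeR QL adjusted p = 0.139). Fgfrl1, a receptor without a kinase domain, had 627 and 705 counts in WT_CTCF and 811 and 745 in MUT_CTCF (log2 fold change 0.22, standard error 0.0995, edgeR QL adjusted p = 0.277). For both genes the groups of libraries did not overlap, as for 5 of the 6 tested, beside 44.7% of all tested genes.

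All 24 genes of the cascade from the receptor adaptors to ERK and its RSK targets were tested. Of them 1 fell, where 1.61% of all tested genes did. The median change of the 24 was -0.017 on the log2 scale. Map2k2 had 7294 and 7109 counts in WT_CTCF and 6051 and 6699 in MUT_CTCF. The normalized means were 7216 ± 127 and 6365 ± 518 (SD, n = 2 each), a log2 fold change of -0.18 with a standard error of 0.0412 (edgeR QL, adjusted p = 0.00518). MUT_CTCF replicate 1 was the lowest library. The estimate was -0.10 without it and -0.27 without MUT_CTCF replicate 2.

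Of 16 other ERK feedback inhibitors, 15 were tested and 1 fell, where 1.61% of all tested genes did. The median change was 0.012 on the log2 scale. Il17rd, which encodes the membrane inhibitor SEF, had 2561 and 2795 counts in WT_CTCF and 2407 and 2247 in MUT_CTCF. Its normalized means were 2683 ± 167 and 2322 ± 90.8 (SD, n = 2 each), 13.5% lower in MUT_CTCF, with a log2 fold change of -0.21 and a standard error of 0.0583 (edgeR QL, adjusted p = 0.031). The call was lost with scaling by library size only (0.0588), with DESeq2 (0.108), without the filter (0.328) and without WT_CTCF replicate 2 (0.434), with adjusted p between 0.0112 and 0.54 over all alternatives. Spry1, the Sprouty paralogue of Spry2, had 355 and 311 counts in WT_CTCF and 376 and 368 in MUT_CTCF, and its estimate was positive, 0.15 with a standard error of 0.137 (edgeR QL, adjusted p = 0.669).

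Among 21 ERK-responsive transcription factors, 20 were tested. Of these 2 rose (1.56% of all tested genes) and 2 fell (1.61%), and the median log2 fold change was 0.022. Egr1, an immediate-early zinc finger factor, had 2293 and 2299 counts in WT_CTCF and 2986 and 2973 in MUT_CTCF. Replicates were close and the lines well apart, at 2301 ± 5.48 and 2974 ± 19.1 normalized counts (SD, n = 2 each). The log2 fold change was 0.37 with a standard error of 0.0553 (edgeR QL, adjusted p = 5.92e-06). Jund, which encodes an AP-1 subunit, rose by 20.4%, from 2244 and 2168 counts to 2538 and 2793 (log2 fold change 0.27, standard error 0.0593, edgeR QL adjusted p = 0.0039). Its exons share 543 bases with Gm11175 on the opposite strand, which had 0 counts. Myc, a growth-promoting factor, was 24.5% lower, from 779 and 839 counts to 657 and 569 (log2 fold change -0.41, standard error 0.101, edgeR QL adjusted p = 0.0115). Ier2, another immediate-early gene, was 8.63% lower, from 7194 and 7339 counts to 6557 and 6772 (log2 fold change -0.13, standard error 0.0382, edgeR QL adjusted p = 0.0419). The genes of this list therefore did not move one way.

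Of the 6 pathway genes called, Egr1 kept its call under all 7 alternatives that used every library, at adjusted p up to 0.0336, and the other 5 lost theirs without the filter, at 0.241 to 0.341. DESeq2 also lost Il17rd (0.108), Myc (0.0642) and Ier2 (0.0888). Ier2 was lost further with the exact test (0.0529), and both Ier2 (0.0853) and Il17rd (0.0588) with library size only. Without WT_CTCF replicate 1, Map2k2 (0.0986) and Ier2 (0.17) were lost, and without WT_CTCF replicate 2, Jund (0.0691), Myc (0.145), Ier2 (0.32) and Il17rd. Without either MUT_CTCF library all 6 were lost, in fits that called no gene of the table, so this loss does not set the 6 apart. Their log2 fold changes kept their sign in those fits.

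**Figure D5:**
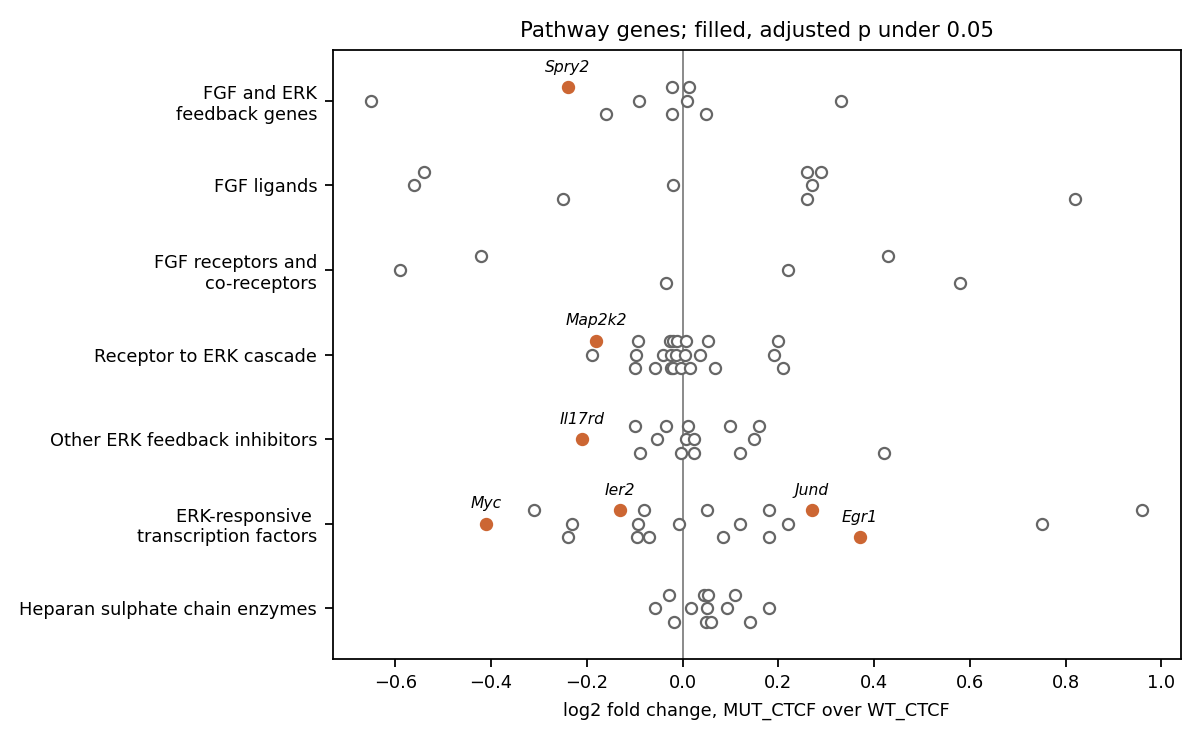
Log2 fold change of MUT_CTCF over WT_CTCF for the tested genes among the 10 feedback genes, in the FGF and ERK lists and among the heparan sulphate enzymes; each point is a gene, the vertical offset within a row has no meaning, and filled points have an adjusted p under 0.05 by edgeR QL. Egr1 and Jund lie above zero, and Spry2, Map2k2, Il17rd, Myc and Ier2 lie below it.

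Markers of states that FGF and ERK signalling favours, and markers of fibroblasts, were set beside these values. Of 7 formative and epiblast markers 5 were tested, of 12 primitive endoderm markers 10, and of 12 fibroblast markers 7. In none of the 3 lists did a gene pass (edgeR QL, and 0 calls with the exact test), where 3.17% of all tested genes did. At an unadjusted p under 0.05 the lists held 2, 4 and 1 genes, beside 15.3% of all tested genes. DESeq2 called 0 and gave an adjusted p for only 2 of the 5, 5 of the 10 and 2 of the 7, without Gata6, Otx2, Sox3 and Col3a1. Of the primitive endoderm markers 7 had a higher and 3 a lower estimate in MUT_CTCF, with a median log2 fold change of 0.13. Gata6, a primitive endoderm factor, had 57 and 50 counts in WT_CTCF and 99 and 108 in MUT_CTCF (log2 fold change 0.95, standard error 0.303, edgeR QL adjusted p = 0.0733). Lamb1, a laminin of the same list, had 1945 and 2064 against 2365 and 2209 counts (log2 fold change 0.18, edgeR QL adjusted p = 0.0899). Sparc, a matrix protein gene of that list named after its values were seen, had the opposite sign, with 14639 and 14469 against 14183 and 13284 counts (log2 fold change -0.09, edgeR QL adjusted p = 0.108). Of the formative and epiblast markers 2 had a higher and 3 a lower estimate, with a median of -0.0079 on the log2 scale. Otx2, an epiblast factor, had 87 and 106 against 131 and 152 counts (log2 fold change 0.55, edgeR QL adjusted p = 0.26), and Sox3 had 190 and 190 against 265 and 259 (log2 fold change 0.46, edgeR QL adjusted p = 0.139). The groups did not overlap for these 5 genes, which apart from Sparc were named for their small p. They did not overlap for 4 of the 10 primitive endoderm and 3 of the 5 formative and epiblast markers, beside 44.7% of all tested genes.

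Of 12 embryonic stem cell markers 1 rose, where 1.56% of all tested genes did. Sox2, a core pluripotency factor, went from 20959 and 20711 counts to 22315 and 22368 (log2 fold change 0.095, edgeR QL adjusted p = 0.0358). The Sox2 call was lost without the filter (0.269), with the exact test (0.103) and without any single library (0.205 to 0.477), over a range of 0.015 to 0.477. The 12 split into 6 higher and 6 lower estimates, and Pou5f1, named after its values were seen, had 33118 and 32273 counts in WT_CTCF and 31065 and 31430 in MUT_CTCF (log2 fold change -0.071, edgeR QL adjusted p = 0.119).

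Of 9 trophectoderm markers 2 fell, where 1.61% of all tested genes did. Cdx2, the trophectoderm determinant, went from 274 and 298 counts to 133 and 159 (log2 fold change -0.97, edgeR QL adjusted p = 0.000227). The keratin Krt8 went from 1102 and 1089 to 878 and 905 (log2 fold change -0.30, edgeR QL adjusted p = 0.0319). Cdx2 was lost without the filter (0.117) and without MUT_CTCF replicate 1 (0.447) or 2 (0.381), and Krt8 without the filter (0.241), with library size only (0.0509), with DESeq2 (0.108) and without any single library (0.131 to 0.486). The list had 4 higher and 5 lower estimates, and Ascl2, named after its values were seen, had 70 and 58 counts in WT_CTCF and 109 and 118 in MUT_CTCF (log2 fold change 0.82, edgeR QL adjusted p = 0.107). Among fibroblast markers, Col3a1 had 26 and 23 counts in WT_CTCF and 12 and 5 in MUT_CTCF (edgeR QL, adjusted p = 0.288), and Thy1 had 596 and 654 against 700 and 744 (adjusted p = 0.334). The part of these cell type markers in the values of the feedback genes was not tested.

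The genes nearest to Spry2 in pattern were sought among the 4029 genes within 2-fold of its level, by the Euclidean distance between log2 CPM values centred on each gene's mean over the 4 libraries. Axin2, a negative regulator of WNT signalling, was the nearest at 0.0282, with 4115 and 4439 counts in WT_CTCF and 3633 and 3756 in MUT_CTCF (log2 fold change -0.22, standard error 0.0481, edgeR QL adjusted p = 0.00397). Fam25c was also among the 3 nearest, at 0.0353 (log2 fold change -0.24, standard error 0.0787, edgeR QL adjusted p = 0.0894). A likeness over 4 libraries is a description only.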

How the data were processed

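RNA-seq counts were taken from 4 libraries, 2 per line. Per the methods and processing notes, the authors trimmed reads with Trim Galore 0.4.4, aligned them to mm9 with STAR and counted uniquely mapped reads per gene with HTSeq 0.9.1, and deposited these raw counts. The strand setting and annotation of the counting are not given in the sources used here. The deposited table of the authors' own comparison (log2 fold changes, average expression, p-values and false discovery rates) was not used.

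Gene names and coordinates came from the mm9 annotation GENCODE M1, which named 37205 of the 37620 identifiers. Tfcp2l1 and Tfap2c were matched as Tcfcp2l1 and Tcfap2c, and Spry3 was not analysed here. Genes were filtered by filterByExpr at its default minimum of 10 counts, scaled by TMM and tested with glmQLFit and glmQLFTest of edgeR 4.0.16 in R 4.3.3 on the line alone. The spread of each gene was moderated towards that of the other genes, with 53.9 prior degrees of freedom. The standard error is the size of the log2 fold change over the root of F, and intervals are 95%. Normalized counts are scaled to the mean library. The scripts were tested on simulated data. An exact permutation test of 2 against 2 libraries cannot give a two-sided p below 0.333.

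The members, lists and alternatives were chosen with earlier results of these data known. All 10 members were named, with the list genes that passed, at most 4 per list by smallest p, or the 2 with the smallest p where none passed, Fgf5, Spry1 and the 3 genes nearest in pattern to the member with the smallest p, of which 1 is not reported here. Alternatives were DESeq2 size factors, library size only, no filter, at least 10 counts in every library, DESeq2 1.42.0, edgeR's exact test, a replicate block and leaving out each library in turn, where the lone library is assumed to vary like the others.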

Additional observations from a re-analysis of the deposited data

How the results depend on the processing

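Over 11 alternatives, 415 of 514 recomputed values stayed as in the main fit. For a gene this means the same direction and side of the threshold, so a gene that stayed uncalled is included. For a number of calls it means equal or near in ratio. For the median of the members it means within 0.00666, the SD over pairs of libraries. The 515 genes with an adjusted p under 0.05 became 29 without a filter, where 23739 genes were tested, 286 with DESeq2, and 0 to 242 with a library left out. The 212 genes at the study's criterion became 117 where at least 10 counts were required in every library. The count of members called, 1, became 0 without a filter, with Spry2 at -0.24 on the log2 scale, and 0 to 1 with a library left out, with Spry2 at -0.30 to -0.19. The median log2 fold change of the members, -0.022, was -0.0098 with library size only and -0.04 to -0.018 with a library left out. With a library left out, Fgfr1 ran from -0.053 to 0.0069, Fgfr2 from -0.045 to 0.63 and Spred1 from -0.014 to 0.031. Cascade genes called, 1, became 0 without a filter, 2 with at least 10 counts in every library and 0 to 1 with a library left out. Other feedback inhibitors called, 1, became 0 with library size only, without a filter and with DESeq2, and 0 to 1 with a library left out. ERK-responsive factors called, 4, became 1 without a filter, 2 with DESeq2 and 0 to 3 with a library left out. Stem cell markers called, 1, became 0 without a filter, 0 with the exact test and 0 with any library left out. Trophectoderm markers called, 2, became 1 with library size only, 0 without a filter, 0 with DESeq2, which gave Krt8 an adjusted p of 0.108 and Cdx2 none, and 0 to 1 with a library left out. The labels share replicate numbers between lines but state no pairing, and the deviations of same-numbered libraries had a correlation of 0.0346 over 10290 genes. With the replicate block 698 genes passed, with 1 gene of the ligand list (Fgf11, which is not secreted), 2 cascade genes and 2 stem cell markers. Spry2 kept its call there (edgeR QL, adjusted p = 0.0036). The cause of these differences was not tested. Counts limit Fgfr2, Spry4 and Dusp4 most, and 2 libraries per line limit every spread.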

Other observations

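Heparan sulphate chains hold FGF ligands at the cell surface and are needed for receptor binding, so the enzymes that build and edit them were described as well. Of 17 such genes 13 were tested, and Ndst3, Ndst4, Hs6st2 and Hs6st3 were too low. None passed (edgeR QL), where 3.17% of all tested genes did. At an unadjusted p under 0.05 there was 1, beside 15.3% of all tested genes. The exact test called 0, and so did DESeq2, which gave an adjusted p for 11 of the 13. The median log2 fold change was 0.052, with 10 of 13 estimates higher in MUT_CTCF. Hs6st1, a sulphotransferase acting at the 6-O position of glucosamine, had 16986 and 17062 counts in WT_CTCF and 16502 and 16331 in MUT_CTCF (log2 fold change -0.058, standard error 0.0289, edgeR QL adjusted p = 0.326). Ndst1, which begins sulphation of the chain, had 2209 and 2172 counts in WT_CTCF and 2360 and 2385 in MUT_CTCF (log2 fold change 0.11, standard error 0.0589, edgeR QL adjusted p = 0.382). The summed level of the list was 1207 and 1215 CPM in WT_CTCF and 1205 and 1227 CPM in MUT_CTCF.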
